A study of Homo sapiens with 12 samples.

Results

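The genes encoding proteasome subunits were followed through eIF3 PAR-CLIP libraries and transcription profiles of Jurkat cells, a human T cell leukemia line. Members were the genes whose symbol is PSM, a letter A to F and a number, with nothing after it. The rule found 44 genes among the 41371 gene names in the cluster lists and transcription profiles together. Of these, 31 had a called cluster in at least 1 PAR-CLIP library, out of 6036 genes with a cluster anywhere.

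The proteasome degrades proteins tagged with ubiquitin and supplies most of the peptides that MHC class I molecules display. Its core is a barrel of alpha rings (PSMA genes), which gate the entry, around beta rings (PSMB genes), which carry the proteolytic sites. A regulatory particle of ATPases (PSMC genes), which unfold substrates, and non-ATPase subunits (PSMD genes), which bind and remove ubiquitin, caps the barrel, and alternative caps (PSME genes) can take its place. In lymphocytes and under interferon the catalytic subunits PSMB5, PSMB6 and PSMB7 are replaced by PSMB8, PSMB9 and PSMB10 to form the immunoproteasome.

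The study asked which RNAs the translation initiation factor eIF3 contacts when T cells are activated. Activated cells had received 50 µM 4-thiouridine for 7 hours and then PMA with ionomycin, which stimulate the pathways below the T cell receptor, for 5 hours. Non-activated cells had received 4-thiouridine without the stimulants. Both were irradiated at 365 nm with 0.2 J per square centimetre, eIF3 was immunoprecipitated with an antibody against EIF3B, and crosslinked RNA was recovered from 5 gel bands named for the subunits they hold. The bands are called here by the last letters of their subunits, A/C/B, B/C, D/L, F/E and G/E/F, where A/C/B stands for the band of EIF3A, EIF3C and EIF3B. Each was sequenced in 2 replicates per state, which gave 20 libraries. RNA-seq was done on 2 activated and 2 non-activated samples, for which the authors deposited the mean TPM of each state only. All samples come from the single clone Jurkat E6-1, so replicates are not donors, and a band can hold RNA crosslinked to any subunit it contains. The depositors corrected swapped labels of the replicate 2 PAR-CLIP samples, and the corrected labels were used here. EGR1, an early response gene, had 2005 and 2076 reads in clusters in the activated A/C/B libraries and no called cluster in either non-activated one.

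Depth differed strongly between the states. Uniquely aligned reads numbered 1148037 and 1163754 in the activated A/C/B libraries, against 84320 and 83846 in the non-activated ones. The B/C libraries held 915290 and 906588 reads in activated cells, against 191633 and 298205 in non-activated cells. The other 12 libraries held between 91892 and 249762. In the D/L band 49.2% and 49.3% of the aligned reads lay on mRNA in activated cells, against 12.6% and 12.5% in non-activated cells. A gene appears in a library's list only with a cluster of at least 7 reads and 2 conversion positions, so a gene not listed may still have had reads. All 12 T cell markers examined reached 1 TPM in at least 1 state, 1 of 5 B cell markers did, and none of the myeloid, erythroid, fibroblast or epithelial markers did. In such bulk libraries fewer cells holding an mRNA and less of it per cell cannot be told apart.

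Clusters on proteasome mRNAs were listed mainly in activated cells and in the A/C/B and B/C bands, as were those of all genes. In the A/C/B band 27 and 28 members were listed in activated cells, against 1 and 1 in non-activated cells. In the B/C band the numbers were 18 and 20 in activated cells, against 8 and 10 in non-activated cells. In the D/L band 6 and 8 members were listed in activated cells, against 1 and 1 in non-activated cells. All genes listed numbered 4916 and 4890 in activated cells, against 165 and 157 in non-activated cells, in A/C/B, 3516 and 3454 in activated cells, against 699 and 1133 in non-activated cells, in B/C, and 821 and 1059 in activated cells, against 126 and 117 in non-activated cells, in D/L. The F/E and G/E/F libraries listed between 0 and 2 members each in either state. No library listed a member that was absent from both activated A/C/B libraries, since all 31 were in at least 1 of these, and 24 were in both. This repeat rate of 77.4% was close to the 77.7% of all listed genes. With 2 libraries against 2 no exact permutation test of such numbers can give a two-sided p below 0.3333.

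All classes of subunit were represented except the assembly chaperones. Clusters were called on 6 of 8 alpha ring genes, 5 of 7 constitutive beta ring genes, 3 of 4 inducible or tissue-restricted beta genes, 4 of 6 ATPases, 9 of 11 non-ATPase subunits of the regulatory particle, 4 of 5 activator and inhibitor genes and 0 of 3 chaperones. The members without a cluster were PSMA2, the testis subunit PSMA8, PSMB3, PSMB5, the thymus subunit PSMB11, PSMC1, PSMC6, PSMD1, PSMD6, the chaperones PSMD5, PSMD9 and PSMD10, and PSME4, an activator found in the nucleus. PSMA8, PSMB11 and PSME4 were also the only 3 members whose mean over the 2 states was below 1 TPM, at 0.263, 0.00153 and 0.530 TPM in activated cells, against 1.00, 0.00386 and 1.32 TPM in non-activated cells. PSMB3, a structural beta subunit, had no cluster in any library although it stood at 11.1 TPM in activated cells and 73.1 TPM in non-activated cells.

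Reads were concentrated on a few members. PSMA6, PSMD14, PSMD3 and PSMB2 each took between 6.35% and 20.4% of all member reads in the activated A/C/B libraries, and between 11.5% and 23.5% in the activated B/C libraries. As a group the members held 0.427% and 0.418% of all cluster reads in activated A/C/B, against 0.938% and 0.979% in non-activated A/C/B (Wilson 95% intervals 0.406 to 0.450% and 0.397 to 0.440%, against 0.645 to 1.36% and 0.673 to 1.42%). Over mRNA reads, the share in that band was 0.250% and 0.245% in activated cells, against 0.0933% and 0.0933% in non-activated cells, so the direction depended on the denominator. In the non-activated libraries of this band the whole share came from PSMA6.

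PSMA6, a subunit of the alpha ring, had the most reads of any member in the A/C/B band and the broadest detection, with clusters in 17 of 20 libraries. It had 286 and 274 reads in clusters in the activated A/C/B libraries, against 27 and 27 in the non-activated ones. In the B/C band it had 93 and 99 reads in activated cells, against 36 and 57 in non-activated cells, and in the D/L band 89 and 130 reads in activated cells, against 46 and 46 in non-activated cells. It was the only member listed in every library of these 3 bands. Scaled to the uniquely aligned reads of each library and given as RPM, the A/C/B values were 249 and 235 RPM in activated cells, against 320 and 322 RPM in non-activated cells. The B/C values were 102 and 109 RPM in activated cells, against 188 and 191 in non-activated cells. The D/L values were 444 and 520 RPM in activated cells, against 245 and 258 in non-activated cells. The states did not overlap in any of these bands, and the activated values were the lower ones in A/C/B and B/C and the higher ones in D/L.

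The edgeR quasi-likelihood test, scaled to uniquely aligned reads and adjusted by Benjamini-Hochberg over all genes tested, gave a log2 fold change for PSMA6 of −0.41 (SE 0.12, adjusted p = 0.0691) in A/C/B, which missed the threshold of 0.05. PSMA6 fell in B/C (log2 fold change −0.85, SE 0.21, adjusted p = 0.0428). It was called higher in D/L (0.94, SE 0.34, adjusted p = 0.0392). Scaling to reads on mRNA turned the D/L value to −1.03 (adjusted p = 0.0399), and TMM scaling turned it to −0.95 (adjusted p = 0.0306). In A/C/B both settings called PSMA6 lower, at −0.91 with mRNA reads (adjusted p = 0.00667) and −0.93 with TMM (adjusted p = 0.00722), and in B/C both kept it lower. The 78 genes listed in all 4 D/L libraries had a median log2 fold change of 1.79 under the scaling to aligned reads, above that of PSMA6. In the F/E band PSMA6 had 18 reads in activated replicate 1 and no cluster in activated replicate 2, against 23 and 22 in non-activated cells, and in the G/E/F band 15 and 16 in activated cells, with no cluster in non-activated cells.

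PSMD14, the metalloprotease of the regulatory particle that cuts ubiquitin off substrates, had 215 and 234 reads in the activated A/C/B libraries and no cluster in the non-activated ones. In the B/C band it had 158 and 164 reads in activated cells, against no cluster and 35 reads in non-activated cells, and the test did not call a difference (adjusted p = 0.426). In the D/L band it had 47 and 77 reads in activated cells and no cluster in non-activated cells. It was the only member other than PSMA6 listed in both replicates of an activated library of the F/E or G/E/F bands, with 10 and 10 reads in F/E.

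PSMD3, a structural subunit of the lid of the regulatory particle, had 140 and 136 reads in activated A/C/B and no cluster in non-activated A/C/B. In B/C it had 120 and 102 reads in activated cells, against 25 and 57 in non-activated cells. These correspond to 131 and 112 RPM in activated cells, against 130 and 191 RPM in non-activated cells, ranges that overlap (log2 fold change −0.41, SE 0.30, adjusted p = 0.336). In D/L it had 19 and 7 reads in activated cells and no cluster in non-activated cells.

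PSMB2, a non-catalytic beta subunit, showed a different order of the bands. It had 89 and 93 reads in activated A/C/B but 190 and 173 in activated B/C. The activated B/C values were 208 and 191 RPM, against 29 and 42 reads, or 151 and 141 RPM, in the non-activated libraries (log2 fold change for activated over non-activated cells 0.45, SE 0.20, adjusted p = 0.146). In D/L it had 26 and 24 reads in activated cells and no cluster in non-activated cells.

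**Figure D1:**
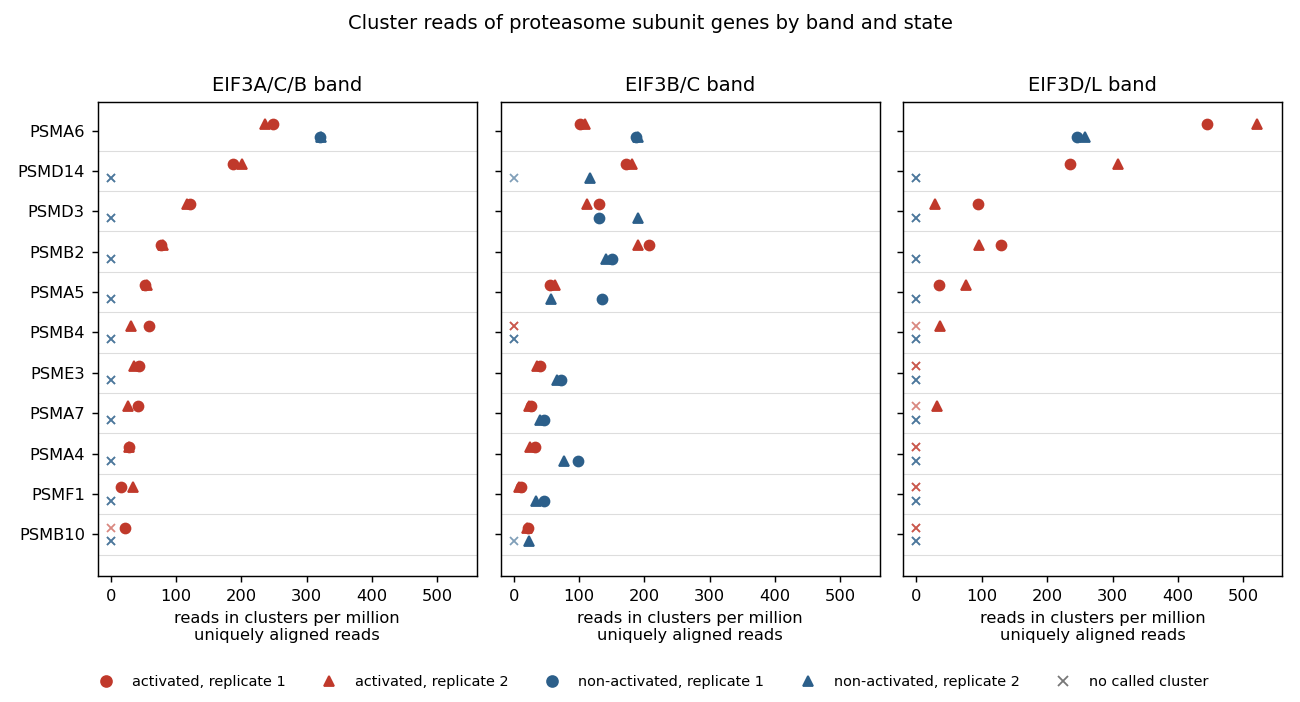
Reads in clusters scaled to the uniquely aligned reads of the library (RPM, x axis) for the 11 members with a mean of at least 50 reads in activated A/C/B or with a cluster in a non-activated library, with a panel for each of the bands A/C/B, B/C and D/L. Each point is 1 library, activated in red above non-activated in blue, and a cross at 0 marks a library without a called cluster. PSMA6 alone has values in both states of all 3 bands, with activated values of 249 and 235 against non-activated values of 320 and 322 in A/C/B, and 444 and 520 against 245 and 258 in D/L.

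The comparison of states in the A/C/B band rested on the presence or absence of clusters. Of the 44 members 24 had at least 20 reads in any of its 4 libraries and were tested, and 23 of these had no non-activated cluster, so they entered the test only through the activated libraries. The edgeR test called 17 of the 24 higher in activated cells, where 77.1% of all 3221 genes tested were called higher, and 0 lower, where 0.497% of all genes were. No member was lower at an unadjusted p below 0.05 either, nor in DESeq2, but PSMA6 was called lower with TMM factors and with mRNA reads as library sizes. Since the non-activated values of the 17 are unlisted rather than measured zeros, no fold change is given for them. They were PSMA4, PSMA5, PSMA7, PSMB1, PSMB2, PSMB4, PSMB6, PSMB8, PSMB9, PSMC3, PSMC5, PSMD3, PSMD4, PSMD12, PSMD13, PSMD14 and PSME3, with adjusted p between 0.00381 and 0.0452. DESeq2 called 9 members. With either activated library left out the count was 0 among members and among all genes, and with either non-activated library left out it was 8.

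The non-activated A/C/B libraries had 0.0727 of the depth of the activated ones. When the activated reads per site of each member listed in both activated libraries were scaled to that depth, only PSMA6 reached 7 reads per site, and PSMA6 was the only member listed. In B/C, at a depth ratio of 0.269, PSMA5, PSMA6, PSMB2, PSMD3 and PSMD14 reached 7 reads per site, and 4 of these 5 were listed in both non-activated libraries. PSMA4, PSMA7, PSME3 and PSMF1 stayed under 7, at 4.75, 4.21, 4.64 and 2.3 scaled reads per site, yet were also listed in both. Members on both sides of 7 scaled reads per site were thus listed in B/C. The scaling used the mean depth of the non-activated B/C libraries, which held 191633 and 298205 reads, and no test was made. Over all genes that reached 7 reads per site the listed share was 46 of 145 in A/C/B and 378 of 648 (58.3%) in B/C. In D/L, where the depth ratio was 0.814, the same 5 members reached 7 reads per site and only PSMA6 was listed, beside 78 of 570 genes (13.7%) overall. PSMB2 and PSMD14, at 20.3 and 20.2 scaled reads per site, were unlisted in non-activated D/L, as were PSMA5 and PSMD3, whose scaled means of 10.6 and 7.05 reads per site were closer to the minimum and which had only 7 reads in 1 of the activated libraries. The share of reads on mRNA was also lower in those libraries, as given above, and its part in the result was not tested.

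The B/C band allowed a comparison of states for more members with clusters on both sides. In this band 9 members were tested, all but PSMD14 and PSMB10 listed in all 4 libraries, and the edgeR test called 0 higher and 2 lower in activated cells, PSMA4 and PSMA6. Over all 2188 genes tested 40.9% were called higher and 2.47% lower. No member was higher at an unadjusted p below 0.05 or in DESeq2, and DESeq2 called 0 lower. With either activated library left out no member was called, and no gene was. With the non-activated replicate 2 left out 1 member was called higher and 3 lower.

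PSMA4, an alpha ring subunit, had 30 and 23 reads in activated B/C, against 19 and 23 in non-activated B/C. These were 32.8 and 25.4 RPM in activated cells, against 99.2 and 77.1 RPM in non-activated cells, and PSMA4 fell in activated cells (log2 fold change −1.59, SE 0.35, adjusted p = 0.0325). Its sites in this band carried the mixed annotation 5′-UTR and intron, except 1 in the 5′-UTR of activated replicate 2. In A/C/B it had 32 and 32 reads in activated cells and no cluster in non-activated cells.

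The other members listed in non-activated B/C did not pass the test, and PSME3, PSMA7 and PSMF1 lay lower in both activated libraries than in both non-activated ones. PSME3, the nuclear activator PA28 gamma, had 37 and 32 reads in activated cells, against 14 and 20 in non-activated cells, or 40.4 and 35.3 RPM in activated cells against 73.1 and 67.1 RPM in non-activated cells (adjusted p = 0.0895). PSMA7, an alpha ring subunit, had 25 and 22 reads in activated cells, against 9 and 12 in non-activated cells, or 27.3 and 24.3 RPM in activated cells against 47.0 and 40.2 RPM in non-activated cells (adjusted p = 0.182). PSMA5, another alpha ring subunit, had 51 and 57 reads in activated cells, against 26 and 17 in non-activated cells, and the states overlapped in RPM (adjusted p = 0.347). PSMF1, an inhibitor of the core particle also known as PI31, had 10 and 7 reads in activated cells, against 9 and 10 in non-activated cells, or 10.9 and 7.72 RPM in activated cells against 47.0 and 33.5 RPM in non-activated cells, and was not tested, being under the minimum of 20 reads. Its reads were at or near the cluster minimum of 7 in both states, so the size of its RPM difference rests on that floor and on depth. PSMB10, an immunoproteasome subunit, had 20 and 18 reads in activated cells, against no cluster and 7 reads in non-activated cells (adjusted p = 0.663). Among the 584 genes listed in all 4 libraries the median log2 fold change was 0.11, while the 8 members among them, PSMF1 included, had a median of −0.79, with 7 below 0 and PSMB2 above. Tested among these genes only, 4 of the 8 members were called lower and 0 higher, beside 82 lower and 139 higher of all 584. Entry to this set required a cluster in both non-activated libraries, at 0.269 of the activated depth, which favours genes with high non-activated values. PSMA4, PSMA7, PSME3 and PSMF1 stayed under 7 scaled reads per site, at 4.75, 4.21, 4.64 and 2.3. The calls in this set are therefore no separate support for lower values in activated cells.

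In the D/L band 3 members had at least 20 reads in any library, and PSMA6, PSMB2 and PSMD14 were all called higher in activated cells by the edgeR test, with 0 lower, where 74.5% of the 431 genes tested were called higher and 0.232% lower. PSMB2 and PSMD14 had no non-activated cluster. DESeq2 called 2 higher and 0 lower. With TMM factors or mRNA reads as library sizes, 2 were called higher and 1, PSMA6, lower. TMM scaling moved the median log2 fold change of all genes tested in this band by more than 0.1, to 6.47 from 7.02, medians of fits that mostly set reads against 0 and are no measure of size. Leaving out either activated library left no member called. PSMD3, with 19 and 7 reads, PSMA5, with 7 and 19 reads, PSMB4, PSMA7, PSMB9 and PSMD4 were under the minimum.

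Few members were called different between the bands in activated cells. The A/C/B libraries were compared with the B/C libraries for 24 members, of which 3 were called higher and 1 lower in A/C/B. Over all 3405 genes tested 7.46% were called higher and 2.53% lower. PSMA6, with 286 and 274 reads in A/C/B against 93 and 99 in B/C, had a log2 fold change of 1.20 (SE 0.10, adjusted p = 0.0335). PSMD12, a lid subunit, had 39 and 38 reads in A/C/B against 7 and 7 in B/C (2.10, SE 0.31, adjusted p = 0.0469). Its B/C reads were at the cluster minimum of 7, so the size of the difference rests on that floor. PSMB4, a structural beta subunit, had 68 and 37 reads in A/C/B and no cluster in B/C (adjusted p = 0.0499). It entered the test only through A/C/B, and its B/C values are unlisted rather than measured zeros.

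PSMB2 went the other way, with a log2 fold change of −1.34 for A/C/B over B/C (SE 0.11, adjusted p = 0.0335). PSMD14 and PSMD3 did not differ detectably between the bands, at 0.14 (SE 0.09) and −0.03 (SE 0.13). TMM scaling left 1 call in each direction, PSMA6 and PSMB2, and moved the median of all genes to 0.26 from 0.59. Without A/C/B replicate 1 or without A/C/B replicate 2 no member was called, and without B/C replicate 1 or replicate 2 the number called higher was 5 or 10, with 1 lower in each case. The bands of a replicate come from one lysate, and with the replicate number as a block no member and no other gene was called. The block kept the PSMA6 and PSMB2 values at 1.20 and −1.34 (adjusted p = 0.148 for each).

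Most sites on member mRNAs lay near the 5′ end. In activated A/C/B 30 of 42 mRNA-region sites (71.4%, Wilson 95% interval 56.4 to 82.8%) and 33 of 42 (78.6%, 64.1 to 88.3%) fell in the 5′-UTR or on the start codon. All other genes had 55.7% and 54.9% there. In activated B/C 17 of 20 member sites (85.0%, 64.0 to 94.8%) and 21 of 25 (84.0%, 65.4 to 93.6%) fell there, against 51.1% and 51.2% for all other genes. Members listed in both activated A/C/B libraries at 1 TPM or more had a median annotated coding region of 816 bases and 3′-UTR of 319 bases. The medians for the other listed genes were 1035 and 1071.5 bases. The shares are not corrected for region length, and its part in the difference was not tested. Sites of a gene share its mRNA and are not independent, so no test was made, and the intervals cover counting error only.

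Start codon sites made up a large part of this. They were 16 and 15 of the 42 member sites in activated A/C/B, against 1034 of 9652 and 1016 of 9723 sites for all other genes. When start codon sites were counted as coding instead, the member 5′-UTR share was 33.3% and 42.9%, against 44.9% and 44.5% for all other genes, so the direction depended on where start codon sites were counted. In B/C it did not, with 60.0% and 56.0% against 45.9% and 46.1%. In A/C/B 19 of 31 members had a start codon site in at least 1 replicate and 27 had a 5′-UTR or start codon site. Of these 27, 19 had no coding, 3′-UTR or intron site. Sites in the 3′-UTR were found on PSMD3 and PSMD8, both lid subunits, in A/C/B, and on PSMD3, PSMD13 and PSME3 in B/C.

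**Figure D2:**
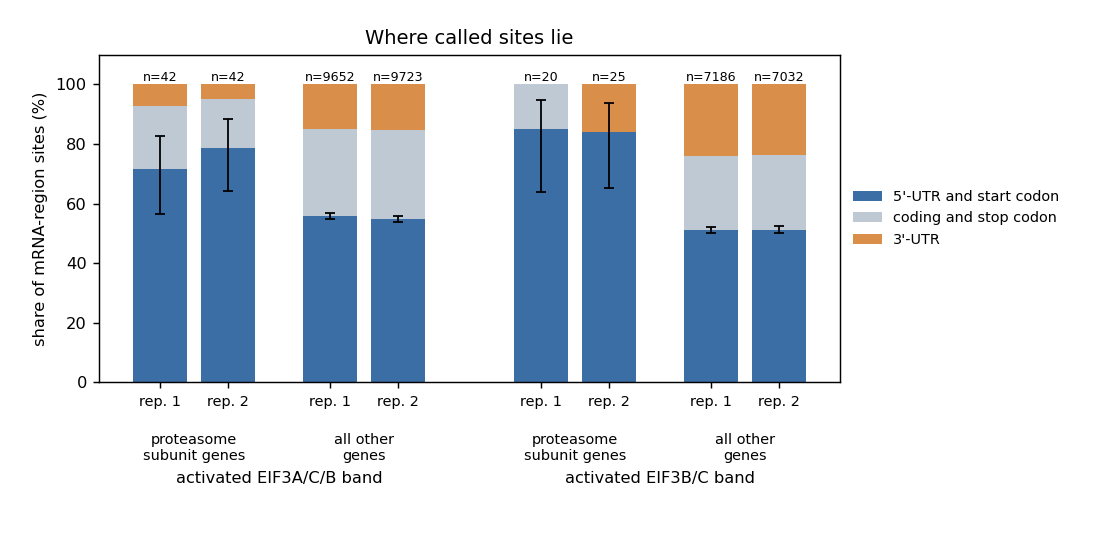
Share of mRNA-region sites (y axis, %) in the 5′-UTR with the start codon, in the coding region with the stop codon, and in the 3′-UTR, for proteasome subunit genes and for all other genes, in each activated A/C/B and B/C library. Error bars are Wilson 95% intervals of the 5′-UTR share and n is the number of sites. The 5′-UTR and start codon hold 71.4% and 78.6% of member sites against 55.7% and 54.9% of other sites in A/C/B. Shares are not corrected for the lengths of the regions, which differ between the sets.

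Individual members departed from this. PSMD3 had 5 and 4 sites in activated A/C/B, spread over the 5′-UTR, the coding region, the stop codon in replicate 1 only, and the 3′-UTR with 2 sites in each replicate. PSMD14 had 3 and 4 sites in the same libraries, all in the 5′-UTR except 1 with another annotation, and none on the start codon. PSMB2 had 1 start codon site in each B/C library of both states, and its D/L sites lay in the 5′-UTR. The PSMB4 sites were annotated to a retained intron, those of PSMB7, the trypsin-like catalytic subunit, to an intron, and most PSMA5 sites to a processed transcript without coding annotation. PSMA6 had 1 site in the 5′-UTR and 1 on the start codon in every library of the A/C/B and B/C bands. In D/L it had both sites in activated cells and only the 5′-UTR site in non-activated cells.

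The positions of single clusters are not given per gene, so the start codon surroundings are shown as the annotation has them, for the 4 members with the most reads, the 3 pairs of catalytic subunits and PSMB3, which had no cluster. The 30 bases are RefSeq and Ensembl shared (MANE Select) transcript sequence, GENCODE 44 on GRCh38, written 5′ to 3′ with the start codon in capitals. Crosslinks form at 4-thiouridine, which is incorporated in place of uridine (T here), so the number of T in the window is given afterwards.
PSMA6: agtgcttctaccaacATGtcccgtggttcc
PSMD14: ttactgaccagaaatATGgacagacttctt
PSMD3: gtgaccccgggtgccATGaagcaggagggc
PSMB2: tggccttccgccaccATGgagtacctcatc
PSMB8: gggtgctgggcggtcATGgcgctactagat
PSMB5: ctgcccacactagacATGgcgcttgccagc
PSMB9: cggtgccttgcagggATGctgcgggcggga
PSMB6: taccggaggagaaagATGgcggctacctta
PSMB10: tctgcctgccccaagATGctgaagccagcc
PSMB7: tgctttcttgggaagATGgcggctgtgtcg
PSMB3: tagtacaccgcaatcATGtctattatgtcc

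The start codon of PSMA6 lies at chr14:35292477-35292479 on the plus strand and its window holds 9 T, as does that of PSMD14 at chr2:161318826-161318828 on the plus strand. The window of PSMD3 at chr17:39980971-39980973, plus strand, holds 3 T, and PSMD3 had a start codon site in 1 library only. The window of PSMB2 at chr1:35641430-35641432, minus strand, holds 7. Among the catalytic pairs the windows of PSMB8 and PSMB5 hold 7 and 5 T, those of PSMB9 and PSMB6 hold 5 each, and those of PSMB10 and PSMB7 hold 5 and 10. PSMB3, without a cluster, has 10 T in its window at chr17:38752827-38752829, plus strand, and 18 in its 5′-UTR of 86 bases. Over the members at 1 TPM or more, the median T count of the window was 7 for those listed in both activated A/C/B libraries and 5 for the others, and 5 for all other genes of either kind.

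The leaders of members were short. The 23 members at 1 TPM or more and listed in both activated A/C/B libraries had a median 5′-UTR of 74 bases with 13 T, and the 16 such members not listed in both had a median of 56 bases with 8.5 T. The corresponding medians for all other genes were 133 bases with 22 T for 1830 listed genes and 75 bases with 13 T for 1193 others. PSMD14 had the longest leader and the most T of any member, 317 bases with 74 T, and PSMA6 had 95 bases with 23 T. PSMD12, called higher in A/C/B than in B/C, had 58 bases with 5 T. These values describe annotated transcripts and do not show which leader the Jurkat mRNA carries.

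Conversion rates of members were close to those of all listed genes. The median T-to-C fraction of member genes was 0.880 and 0.875 in activated A/C/B, against 0.870 and 0.870 over all listed genes, with members between 0.63 and 1. In activated B/C the members' median was 0.920 and 0.910, against 0.890 and 0.900. PSMA6 had 0.93 and 0.95 in activated A/C/B, against 0.89 and 0.81 in non-activated A/C/B. Its reads there came from 82 and 75 distinct sequences in activated cells and from 18 and 19 in non-activated cells.

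Cluster reads were set beside transcript level for the 39 members at 1 TPM or more in activated cells. Of these 23 (59.0%) were listed in both activated A/C/B libraries, against 60.5% of 3282 other genes. By TPM of the main coding isoform instead, the listed shares were 62.1% of 29 members and 73.0% of 1201 other genes. With isoforms summed, the listed members had a median of 6.62 reads per TPM, against 17.3 for the other listed genes. TPM is corrected for transcript length and cluster reads are not, so the quotient also carries length, and no test was made across genes. PSMD14 and PSMD3 stood highest among members at 73.9 and 68.6 reads per TPM, followed by PSME3 at 37.9, PSMD12 at 33.4, PSMB2 at 31.1 and PSMF1 at 28.4. PSMA6 stood at 26.5. The lowest listed members were PSMB7 at 2.47 and PSMD8 at 2.70.

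**Figure D3:**
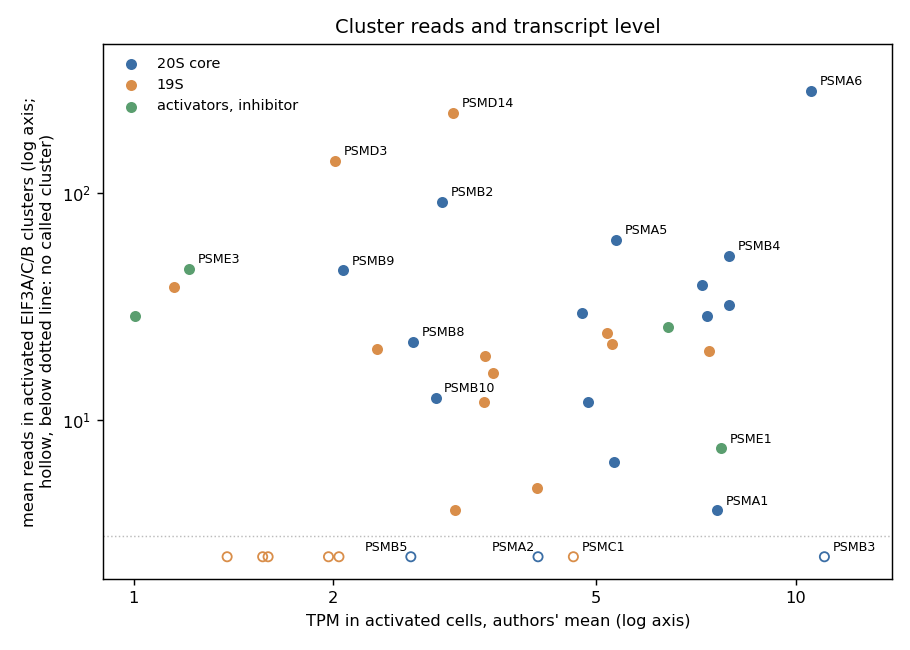
Mean reads in activated A/C/B clusters (y axis, log scale) against the authors' mean TPM in activated cells (x axis, log scale) for the 39 members at 1 TPM or more. Blue is the core particle, orange the regulatory particle and green the activators and inhibitor, and hollow points below the dotted line had no called cluster. PSMB3 at 11.1 TPM had none, and PSMA6 at 10.6 TPM had a mean of 280 reads.

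The transcription profiles give 1 mean per state, so the changes have no error and no test. The raw TPM of most genes was lower in activated cells, with a median log2 change of −2.22 over the 8504 genes at a mean of 1 TPM or more. The 10 most abundant transcripts took 88.5% of all TPM in activated cells and 73.7% in non-activated cells. Protein-coding transcripts held 1.53% of all TPM in activated cells and 9.24% in non-activated cells, so raw TPM are not directly comparable between the states. Changes are therefore given as log2 of TPM plus 0.1, relative to the median gene. On this scale 41 members were measured, with a median of −0.20, 12 above the median gene and 29 below, and the 41 spanned −0.80 to 0.60. The quartiles of all genes were −0.36 and 0.34. Members held 0.885% of the TPM of protein-coding genes in activated cells and 0.872% in non-activated cells. With TPM rescaled to those genes, a scale not relative to the median gene, the median of the members was 0.09.

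The constitutive beta ring had the lowest median of any subunit class, −0.50 over 7 genes. It stayed below 0 under each of the 7 alternatives tried. Every class median was below 0 in the main setting, without centring and without the filter, so under those settings the sign does not set this class apart. PSMB7 was at −0.75, PSMB6, the caspase-like subunit, at −0.69, PSMB4 at −0.51, PSMB3 at −0.50, PSMB5, the chymotrypsin-like subunit, at −0.49 and PSMB1 at −0.33, and PSMB2 alone lay at the median gene with 0.01. In level, PSMB7 was at 4.86 TPM in activated cells and 38.6 TPM in non-activated cells, and PSMB6 at 4.76 TPM in activated cells and 36.3 TPM in non-activated cells.

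In profile change, each immunoproteasome gene stood above the constitutive gene it replaces. PSMB9 was at 0.52 relative to the median gene, PSMB8 at −0.14 and PSMB10 at −0.21. The difference between PSMB9 and PSMB6 was 1.21 log2 units, that between PSMB10 and PSMB7 was 0.53, and that between PSMB8 and PSMB5 was 0.35, and all 3 were positive under the other pseudocounts, isoform choices and rescaled TPM, between 0.21 and 1.33. Expressed as TPM ratios, PSMB9 over PSMB6 was 0.436 in activated cells and 0.191 in non-activated cells. PSMB8 over PSMB5 was 1.01 in activated cells and 0.791 in non-activated cells, and PSMB10 over PSMB7 was 0.588 in activated cells and 0.410 in non-activated cells.

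The order of these genes by cluster reads was not their order by TPM. PSMB9 had 46 and 45 reads in activated A/C/B at 2.07 TPM, and PSMB6 had 33 and 26 at 4.76 TPM. Of the 4 PSMB9 sites in each of these libraries, 1 and 2 lay on an intron, so not all its reads are on mRNA regions. PSMB8 had 22 and 22 reads at 2.64 TPM, while PSMB5 at 2.62 TPM had no cluster. PSMB10 had 25 reads in replicate 1 and no cluster in replicate 2 at 2.86 TPM, and PSMB7 had 13 and 11 reads, all on an intron, at 4.86 TPM. None of these 6 genes had a cluster in non-activated A/C/B. PSMB8 and PSMB9 lie next to each other on chromosome 6 and overlap on opposite strands, PSMB9 also shares its strand with PSMB8-AS1, and it overlaps TAP1 on the other strand, so reads of PSMB9 and PSMB8-AS1 cannot be told apart there.

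**Figure D4:**
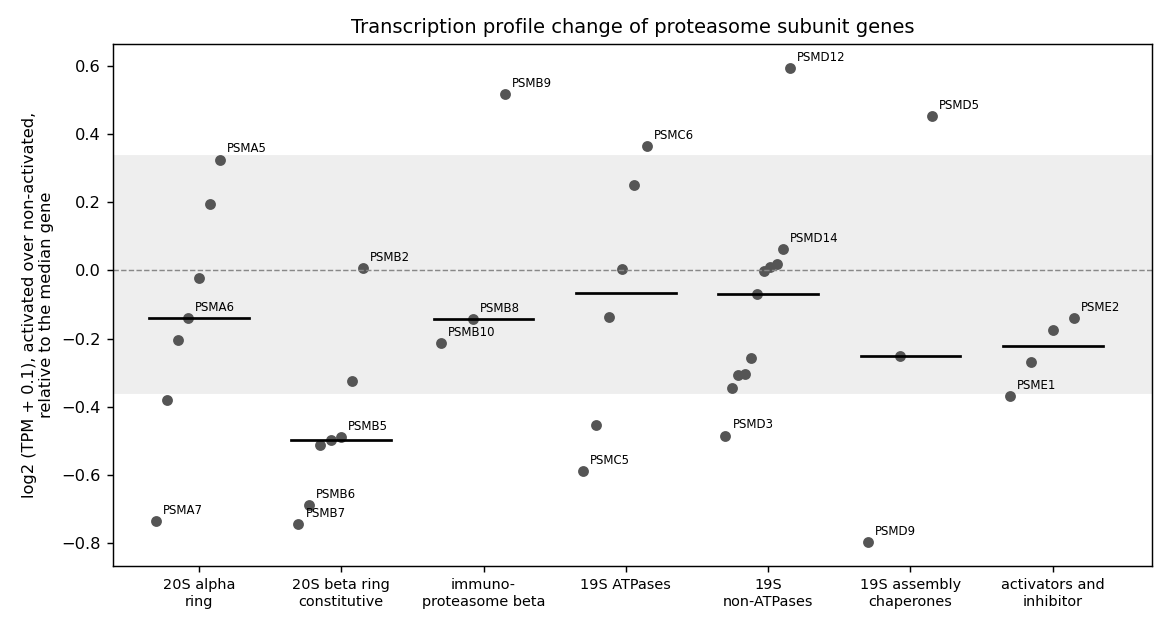
Log2 change of TPM plus 0.1, activated over non-activated cells, relative to the median gene (y axis), for the 41 members with a mean of 1 TPM or more, by subunit class (x axis). Each point is 1 gene from the authors' mean of 2 libraries per state, black lines are class medians and the grey band spans the quartiles of all genes. The constitutive beta ring lies lowest with a median of −0.50, and PSMB9 stands at 0.52.

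The other classes lay closer to the median gene. TPM rescaled to protein-coding genes are not relative to the median gene, so their zero point differs. On that scale the medians were 0.21 for the alpha ring, 0.22 for the ATPases, 0.18 for the non-ATPase subunits and 0.12 for the inducible beta genes. Relative to the median gene, the alpha ring had a median of −0.14, from PSMA7 at −0.74 to PSMA5 at 0.33, with PSMA6 at −0.14. The main coding isoform of PSMA5 made up 15.6% of its TPM in activated cells and 1.96% in non-activated cells. The ATPases had a median of −0.07, from PSMC5 at −0.59 to PSMC6 at 0.37. The non-ATPase subunits had a median of −0.07 as well, from PSMD3 at −0.49 to PSMD12 at 0.60, and PSMD14 was at 0.06. The chaperones ranged from −0.80 for PSMD9 to 0.45 for PSMD5.

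The 4 activator and inhibitor genes above the minimum all lay below the median gene, with a median of −0.22 (0.04 on the rescaled TPM). PSME1 was at −0.37 and its partner PSME2 at −0.14, which together form the interferon-inducible activator PA28. PSME3 was at −0.17 and PSMF1 at −0.27. In the cluster lists PSME1 had no cluster in replicate 1 and 15 reads in replicate 2 of activated A/C/B, and PSME2 had 33 and 18 reads there (adjusted p = 0.0523 against non-activated cells). PSME3 had 50 and 42 reads there, and PSMF1 had 18 and 39 (adjusted p = 0.0617).

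Genes that work with the proteasome but fall outside the rule were described from a list of assembly factors, associated proteins, shuttles, regulators and ubiquitin genes, of which 32 were found in the files. Of these, 23 were listed in both activated A/C/B libraries. By the edgeR test 14 of 19 tested were called higher in activated A/C/B and 0 lower, 7 of 11 higher and 0 lower in B/C, and 4 of 4 higher and 0 lower in D/L, where 77.1%, 40.9% and 74.5% of all genes tested were called higher. Of those called higher, all but VCP in A/C/B and B/C, and all but VCP and SHFM1 in D/L, had no non-activated cluster and entered the test only through the activated libraries. VCP, the segregase that hands ubiquitinated proteins to the proteasome, had 600 and 538 reads in activated A/C/B, against 15 and 14 in non-activated A/C/B (log2 fold change 1.51, SE 0.13, adjusted p = 0.00381). In B/C VCP had 593 and 598 reads in activated cells, against 81 and 141 in non-activated cells (0.54, SE 0.12, adjusted p = 0.0347), the direction opposite to PSMA4 and PSMA6.

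SHFM1, also called SEM1, a small subunit of the regulatory particle, had 171 and 189 reads in activated A/C/B, against 7 and 10 in non-activated A/C/B (0.62, SE 0.22, adjusted p = 0.0750). NFE2L1, the transcription factor that raises proteasome genes when proteasome activity is low, had 158 and 161 reads in activated A/C/B and no cluster in non-activated A/C/B. IRF1, which drives immunoproteasome genes under interferon, had 388 and 373 reads there and no non-activated cluster, and was the only gene of the list called lower in A/C/B than in B/C, where it had 476 and 494 reads. Its profile change was 2.40 relative to the median gene, while the whole list had a median of −0.04 with 13 of 28 genes above the median gene.

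The genes that carry proteasome products to MHC class I showed a higher profile than the proteasome genes. Of 13 genes 11 lay above the median gene, with a median of 1.00, beside 12 of 41 and −0.20 for the members. TAP1, a peptide transporter subunit that neighbours PSMB9, was at 1.29, and NLRC5, the class I transactivator, at 2.35. TAP1 had 466 and 439 reads in activated A/C/B and no cluster in non-activated A/C/B. B2M, the class I light chain, had 374 and 372 reads in activated A/C/B, against 7 and 8 in non-activated A/C/B (log2 fold change 1.85, SE 0.15, adjusted p = 0.00381). By the edgeR test 5 of 8 tested genes were called higher and 0 lower in that band, where 77.1% of all genes tested were called higher, and of the 5 only B2M had non-activated clusters.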

How the data were processed

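Each PAR-CLIP library came as a gene list in which the deposited counts give the reads and the sites a gene had in clusters. Per the study's methods, these libraries were sequenced on a HiSeq 2500. Reads sharing a random barcode were collapsed, mapped to hg38 and clustered with PARpipe and PARalyzer (minimum 5 reads per group, 7 reads and 2 conversion positions per cluster, length 11). The authors' pipeline also gave the T-to-C fraction of each gene and the uniquely aligned reads per RNA class. For RNA-seq, the authors trimmed reads with Cutadapt 2.6, ran kallisto 0.46.0 on GENCODE release 32 and deposited TPM averaged over 2 replicates, so depth is not known. Columns of other samples numbered 0.

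Reads per gene were compared with edgeR 4.0.16 under R 4.3.3: a quasi-likelihood test, a minimum of 20 reads in 1 of 4 libraries, library sizes set to the uniquely aligned reads, and a threshold of 0.05 after Benjamini-Hochberg adjustment over every gene tested. Unlisted genes entered with 0 reads. The fit was tested on simulated counts. Alternatives were DESeq2 1.42.0, TMM factors, mRNA reads as library sizes, no filter, genes listed in every library, a replicate block and leaving out each library, where the lone library of a state is assumed to vary like the others. TPM were summed over isoforms, with a pseudocount of 0.1 and a minimum mean of 1. Wilson 95% intervals cover counting error only. RPM are reads in clusters divided by uniquely aligned reads.

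The members and gene lists were chosen with earlier results of these data known. Described in full are members averaging at least 50 reads in the activated A/C/B libraries, members listed in non-activated cells or called against the direction of most, the catalytic pairs, the activators and inhibitor, and the extremes of profile change per class, and, of related genes, those averaging at least 100 reads or called lower. Other names were chosen after their values were seen. Leaders and start codons are those of MANE Select transcripts (GENCODE 44), a later release than the cluster annotation.

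The study calls the replicates biological without saying how they were grown, so p-values measure the spread between these libraries only, which may be partly technical. Cluster reads of replicates differed beyond sampling noise in 9 of 10 pairs, and no pair was merged. Between bands the replicate numbers mark a shared lysate, although the deviations of same-numbered libraries correlated at −0.02.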

Additional observations from a re-analysis of the deposited data

Results flagged for a closer look

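PSMA6 differed between bands in the direction of its change. In RPM, the mean of activated minus non-activated libraries was −78.9 in the A/C/B band and −84.1 in the B/C band, with both activated libraries below both non-activated ones, and 231 in D/L, with both activated libraries above. The difference between the bands was not tested. The D/L libraries of the 2 states also differed in the share of reads on mRNA, and per mRNA read the activated values were the lower ones in this band too.

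Names that begin like those of proteasome genes but fall outside the rule also had clusters. PSMC3IP, a recombination factor, had a mean of 9 reads in activated A/C/B clusters. PSMD5-AS1, a non-coding RNA named after PSMD5, had a mean of 81 reads in activated A/C/B and 36 in activated B/C, while PSMD5 itself had no cluster. Neither was listed in non-activated cells.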

How the results depend on the processing

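Of 296 fold changes under alternatives, 246 kept their direction and side of the threshold, 28 lost and 8 gained a call and 14 reversed, and of 207 counts, medians and shares 136 stayed within 1.5 times or the replicate spread. The cause of each change was not tested. The low depth of the non-activated libraries limits which members could be listed there, and each state has 2 libraries only.

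Members called higher in activated A/C/B numbered 17, but 9 with DESeq2, 0 among genes listed in every library and 0 to 8 with a library left out. 1 member, PSMA6, was called lower with TMM factors and 1 with mRNA reads as library sizes. In B/C, with 0 higher and 2 lower, DESeq2 called 0 lower, no filter 1 and genes listed in every library 4, and leaving out a library gave 0 to 1 higher and 0 to 3 lower. In D/L, with 3 higher, genes listed in every library gave 1 higher, and TMM factors and mRNA reads each gave 1 lower (PSMA6, −0.95 and −1.03). Leaving out a library gave 0 to 3 higher. Between bands, with 3 higher and 1 lower, TMM factors gave 1 higher, no filter 0 in both directions, and leaving out a library 0 to 10 higher and 0 to 1 lower. The replicate block left 0 members called in all 4 comparisons, and it reversed no fold change. Same-numbered libraries of the states correlated at −0.01, 0.07 and 0.16, from 2 pairs each.

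Between bands, TMM factors turned PSMD14 to −0.20 and PSME3 to −0.26. Leaving out a library gave −1.19 to 0.057 for PSMA5 and −0.17 to 0.86 for PSMB10 between states in B/C, and between bands −0.24 to 0.13 for PSMA4, −0.00070 to 0.69 for PSMA7, −0.9997 to 0.062 for PSMB10, −0.058 to 1.92 for PSMD2, −0.13 to 0.086 for PSMD3 and −0.069 to 0.20 for PSME3.

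With a pseudocount of 1 the median profile change was −0.63 for all members, −0.51 for ATPases, −0.45 for non-ATPases, −0.76 for the alpha ring, −1.10 for the constitutive beta ring and −0.52 for activators and inhibitor. Without the filter these were −1.72, −1.63, −1.63, −1.65, −2.06 and −1.74, with −1.82 for chaperones and −1.38 for inducible beta genes. Without centring they were −2.42, −2.28, −2.29, −2.35, −2.71 and −2.44, with −2.47 for chaperones and −2.36 for inducible beta genes. Rescaled TPM, whose zero point is not the median gene, gave −0.22 for the constitutive beta ring, −0.01 for chaperones and 0.09 for all members. They gave 0.21 for the alpha ring, 0.22 for ATPases, 0.18 for non-ATPases, 0.12 for inducible beta genes and 0.04 for activators and inhibitor.

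At the non-activated depth 1 member of activated A/C/B and 5 of activated B/C would be expected to be listed. The non-activated libraries listed 1 and 1 in A/C/B, and 8 and 10 in B/C. With at least 20 reads the mean number listed was 8.5 in activated B/C, against 5 in non-activated B/C, and 3 in activated D/L. Over mRNA reads the members' share was 0.247% in activated A/C/B, against 0.0933% in non-activated A/C/B, 0.178% against 0.245% in B/C, and 0.214% against 0.200% in D/L. With start codon sites as coding, 38.1% of member sites in activated A/C/B lay in the 5′-UTR and 54.8% in the coding region. By main coding isoform the listed members had a median of 10.3 reads per TPM, against 20.5 for the other listed genes.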
